A study of Mus musculus with 24 samples.

Results

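The late cornified envelope groups Lce1 and Lce3 were followed in mouse ear skin and in ear skin grafts. The 10 members were chosen by symbol, with earlier results of these data known: Lce1a1, Lce1b, Lce1c, Lce1f and Lce1g, and Lce3a, Lce3b, Lce3c, Lce3d and Lce3f. They were 10 of the 27180 genes counted, and all 10 were tested in each comparison below. The study compared skin that carries the E7 oncoprotein of human papillomavirus 16 behind the keratin 14 promoter (K14E7, here E7), which is active in basal keratinocytes, with C57BL/6 skin (C57). RNA was sequenced from whole ear skin of E7 and of C57 mice at 8 weeks, and from grafted ear skin at 14 and 28 dpg, read here as days after grafting. Graft donors were CD1dKOxE7 (labelled CD1dKOxK14E7, E7 skin of CD1d-deficient donors), E7 or C57 mice, and every recipient was C57BL/6. CD1d presents lipids to natural killer T cells. The recipients of the CD1dKOxE7 grafts carried an intact CD1d gene, so cells of the recipient inside a graft could still make CD1d. Each of the 8 groups had 3 libraries. The labels do not say whether these came from separate animals, so p-values measure only the spread between these libraries.

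The cornified envelope is the cross-linked protein shell that replaces the plasma membrane of keratinocytes as they die and form the outer layer of the epidermis. Late cornified envelope proteins are small, and are joined to this shell by transglutaminases late in differentiation. Their genes lie side by side in the epidermal differentiation complex. In human skin, genes of the LCE1 and LCE2 groups are expressed in normal epidermis, while those of the LCE3 group are low there and are induced by injury to the barrier and in psoriasis. A role of its own for each single gene of these groups is not established, so members are described by group.

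Library totals ran from 6550011 to 13814448 counts, and the 10 members together took 0.0684 to 0.239% of them. The E7 transgene had at most 2 counts in any C57 library and at least 141 in any library of E7 or CD1dKOxE7 skin. At 14 dpg Cd1d1 had 13.6, 17.2 and 11.4 CPM (counts scaled to the size of the library) in CD1dKOxE7 grafts, against 15.2, 14.3 and 16.8 CPM in E7 grafts. At 28 dpg it had 5.33, 4.44 and 14.7 CPM in CD1dKOxE7 grafts, against 25.8, 21.4 and 23.1 CPM in E7 grafts. Which part of the gene was deleted is not stated in the labels, and Cd1d1 therefore does not check the label of the grafts, which are called by their labels throughout. Replicate 3 of CD1dKOxE7 at 28 dpg stood apart from replicates 1 and 2, with 14.7 CPM of Cd1d1 as above and 18.8 CPM of the E7 transgene, where the others had 44.1 and 44.4 CPM of it. Results that rest on this library are given with and without it. By the flow cell and lane codes in the library descriptions, ear and graft libraries came from different flow cells and CD1dKOxE7 grafts from another lane than E7 and C57 grafts. Tissue and flow cell, and the CD1dKOxE7 donor and lane, cannot be told apart.

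The members lie on chromosome 3 (GRCm38), the Lce1 genes between positions 92646532 and 92752338 and the Lce3 genes between 92925287 and 92993426. Their longest annotated transcripts have 491 to 925 bases. Of the 50-base stretches of these transcripts, 13.8 to 24.4% in each Lce1 member and 12.1 to 49.3% in each Lce3 member also occur in another Lce gene, with the highest shares in Lce3d (49.3%), Lce3f (48.0%) and Lce3c (35.7%). The labels do not state how reads of such stretches were divided, and the split of counts between members of a group is uncertain. No 50-base stretch is shared between a member of Lce1 and a member of Lce3.

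Over the 24 libraries each of the 5 Lce3 genes had a Pearson r of 0.988 to 0.993 with their mean. That mean includes the gene itself, and the genes share sequence as given above, so a high r is partly built in. Promoter sequence is shown for the Lce1 and the Lce3 member with the most counts, Lce1a1 and Lce3c, and for one further member of each. The RefSeq promoter table (GRCm38.p6, 250 bases before to 50 after the gene's start) held 9 of the 10 members, all but Lce1f. Each stretch below runs 5′ to 3′ on the strand of the gene, from 120 bases before the start to 20 bases after it. Capitals mark 2 short sequences that were picked after these promoters were read, ATAAAA at 20 to 40 bases before the start and TTGNGAA at 60 to 120 bases before it.
Lce1a1, chr3:92648288-92648427, minus strand: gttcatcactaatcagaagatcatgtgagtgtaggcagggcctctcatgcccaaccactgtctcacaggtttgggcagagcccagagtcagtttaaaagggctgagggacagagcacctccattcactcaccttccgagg
Lce1b, chr3:92656907-92657046, minus strand: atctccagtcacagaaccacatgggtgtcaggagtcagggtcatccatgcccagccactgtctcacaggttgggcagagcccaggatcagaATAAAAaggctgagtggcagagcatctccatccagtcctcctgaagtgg
Lce3c, chr3:92944366-92944505, plus strand: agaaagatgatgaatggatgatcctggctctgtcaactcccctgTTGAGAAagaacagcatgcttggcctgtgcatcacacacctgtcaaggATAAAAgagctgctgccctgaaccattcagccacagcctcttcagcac
Lce3d, chr3:92957270-92957409, plus strand: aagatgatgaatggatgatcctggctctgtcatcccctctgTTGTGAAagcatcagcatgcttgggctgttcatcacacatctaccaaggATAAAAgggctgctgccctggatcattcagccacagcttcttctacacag

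ATAAAA was found in that window in 3 of 4 Lce1 promoters (not in Lce1a1) and in 4 of 5 Lce3 promoters (not in Lce3a), beginning 28 to 30 bases before the start, and in 1.59% of all 32851 promoters of the table. The Lce3a promoter also holds ATAAAA, but further before the start, outside this window, which was set after the promoters were read. TTGNGAA on the strand of the gene was found in 5 of 5 Lce3 promoters, beginning 75 to 94 bases before the start, and in 0 of 4 Lce1 promoters. Of all promoters, 1.63% held it there, and 14.2% held it on either strand anywhere in the 300 bases. Since neighbouring Lce genes resemble each other in sequence, these promoters are not separate observations. The motif TGANTCA of AP-1 was in 0 of 4 Lce1 and 0 of 5 Lce3 promoters (7.81% of all), AACNGGT, a core of grainyhead-like sites, in 0 and 0 (8.13%), TATAAA in 0 and 0 (13.6%), and CACCC, a core of Kruppel-like factor sites, in Lce1b, Lce1c, Lce3a and Lce3f (57.5%). These 4 were searched on both strands over the whole 300 bases.

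In C57 ear skin the Lce1 genes were expressed and the Lce3 genes were far lower, some with under 10 counts in all 3 libraries. Per kilobase of transcript, the mean level was 468 CPM per kb for Lce1a1, 292 for Lce1b, 265 for Lce1c, 136 for Lce1f and 96.9 for Lce1g, with no overlap between neighbours in this order over the 3 libraries. Lce3c followed at 8.07 CPM per kb and Lce3d at 1.504, while Lce3f (0.285), Lce3a (0.227) and Lce3b (0.133) overlapped. Summed over the 3 C57 ear libraries, Lce3a had 5 counts, Lce3b 3 and Lce3f 7. The 5 Lce1 genes also stood above the 5 Lce3 genes by mean level per kilobase in E7 ear, in C57 grafts of both days and in E7 grafts at 28 dpg. In the last of these Lce1g (167 CPM per kb) and Lce3c (137) overlapped. In CD1dKOxE7 grafts at 28 dpg Lce3c (280 CPM per kb) and Lce3d (221) stood above Lce1g (194), with overlap between neighbours. The place of Lce3d rested on replicate 3, since in replicates 1 and 2 Lce3d had 138 and 201 CPM per kb, and Lce1g had 184 and 237 CPM per kb. In E7 grafts at 14 dpg the groups interleaved, with Lce3c (386 CPM per kb) between Lce1b (505) and Lce1c (329) and overlap between each of these and the next. In CD1dKOxE7 grafts at 14 dpg Lce3c had the highest mean of the 10 (246 CPM per kb), ahead of Lce1a1 (233), and every neighbour in the order overlapped the next.

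**Figure D1:**
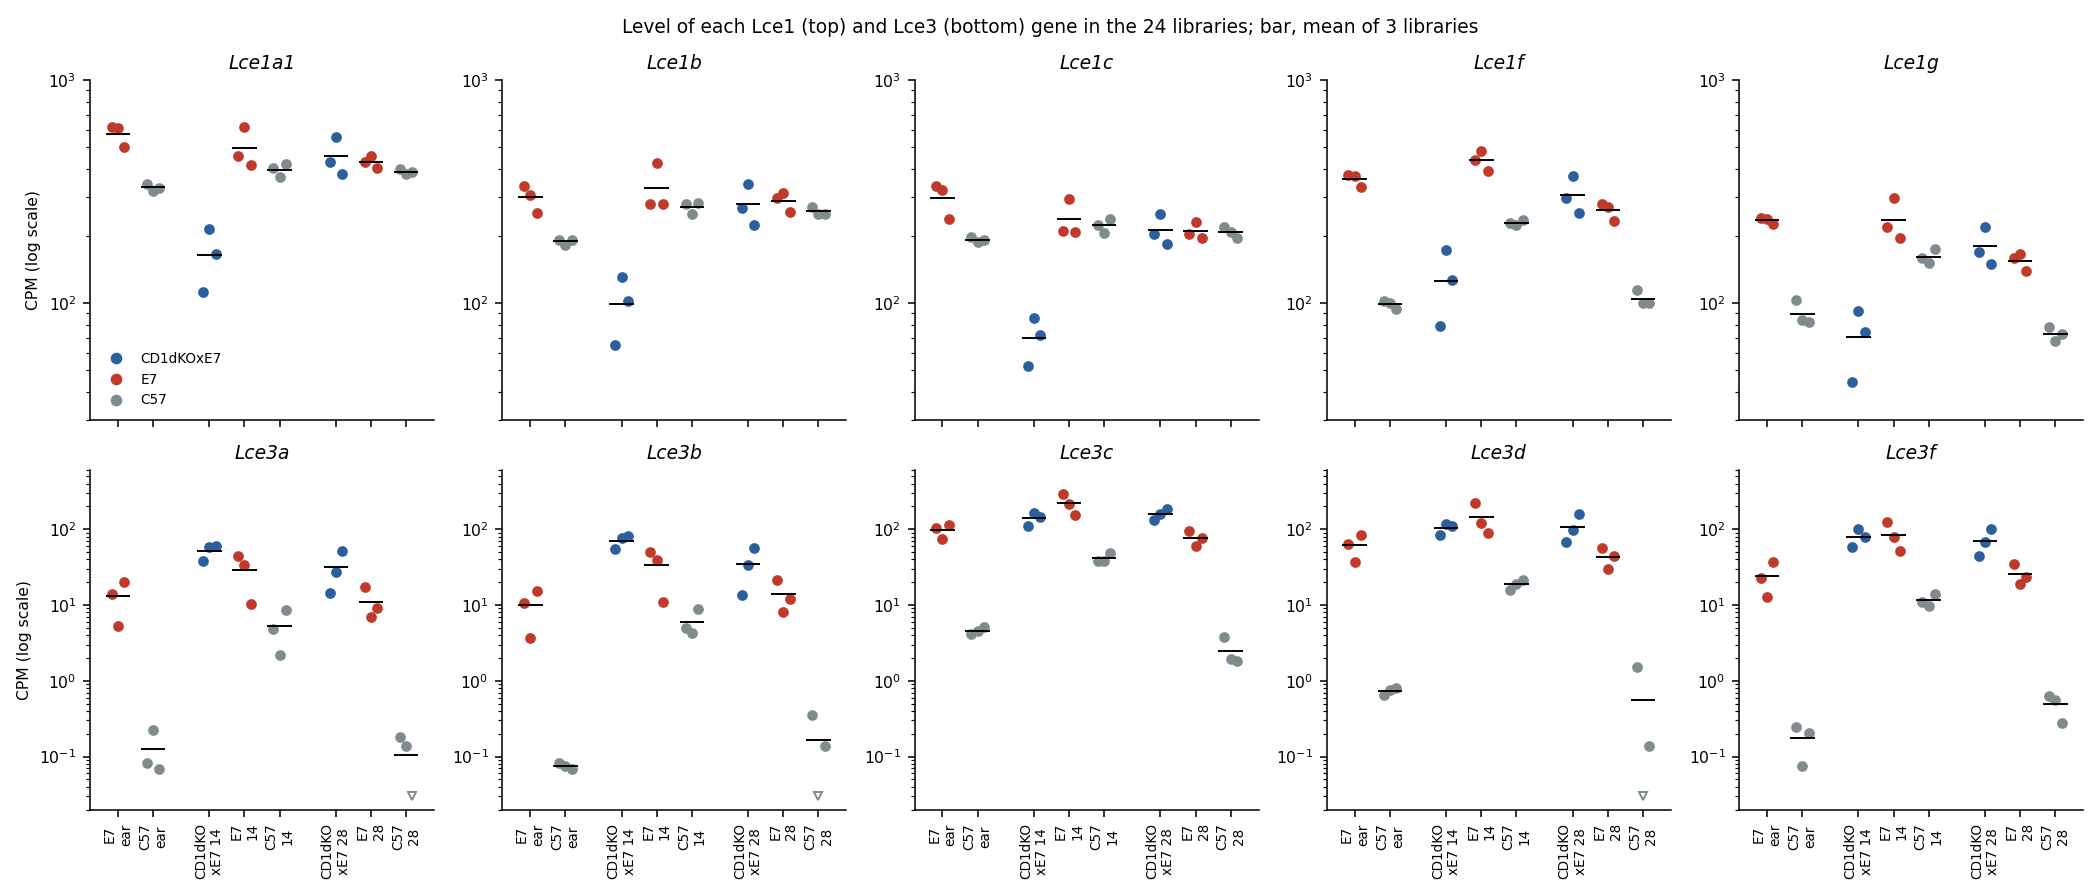
Level of each member in every library, in CPM on a log scale that differs between the rows, for Lce1 (top row) and Lce3 (bottom row). Points are libraries, bars are means of 3, and open triangles at the foot are libraries with 0 counts. Lce1 genes dip in CD1dKOxE7 grafts at 14 dpg, while Lce3 genes have their lowest means in C57 ear and in C57 grafts at 28 dpg.

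In E7 ear skin all 10 members rose over C57 ear skin, the Lce1 genes by 1.55 to 3.62 times and the Lce3 genes by far more. Of all 15720 genes tested there, 65.3% passed, 32.6% rising and 32.7% falling. Lce1a1 had 614, 611 and 502 CPM in E7 ear, against 344, 319 and 327 CPM in C57 ear (log2 fold change 0.80 ± 0.086 SE, adjusted p = 1.11e-05, edgeR). Lce1f rose most of its group, with 375, 370 and 331 CPM in E7 ear, against 102, 101 and 94.5 CPM in C57 ear (1.86 ± 0.07, adjusted p = 6.24e-09). For each of the 5 Lce1 genes every E7 library lay above every C57 library, and 71.1% of all genes tested had no overlap either. The other Lce1 values were 1.39 for Lce1g, 0.66 for Lce1b and 0.63 for Lce1c, with the median of all genes tested at 0.00.

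Lce3c had 105, 74.4 and 113 CPM in E7 ear, against 4.09, 4.58 and 5.07 CPM in C57 ear (log2 fold change 4.40 ± 0.20, adjusted p = 8.44e-07). Lce3d had 63.5, 36.5 and 83.4 CPM in E7 ear, against 0.654, 0.750 and 0.812 CPM in C57 ear (6.34 ± 0.51, adjusted p = 0.000175). Groups did not overlap for any Lce3 gene, as was the case for 71.1% of all genes tested, and E7 replicate 2 was the lowest E7 library for all 5. Lce3f (7.04 ± 0.74, adjusted p = 0.000362) and Lce3a (6.63 ± 0.90, adjusted p = 0.00115) rested on 7 and 5 counts in C57 ear. Without C57 ear replicate 2, which held 3 of the 5, the ratio of Lce3a was 180 in CPM, with a 95% counting interval of 49.6 to 1495. Lce3b had 310 counts over the E7 libraries and 3 over the C57 libraries, a ratio of 134 in CPM with a 95% counting interval of 45.3 to 651. Lce3a, Lce3b, Lce3d and Lce3f passed the filter on low counts through the E7 libraries alone (0 of 3 C57 libraries above its 0.887 CPM), so each was tested because it was high in E7 ear, and their number is a description. The 4 suprabasal markers Krt1, Krt10, Dsg1a and Dsc1 summed to 34340 to 37865 CPM in E7 ear, against 12664 to 15729 CPM in C57 ear, and the 5 fibroblast markers to 2207 to 4335 CPM in E7 ear, against 7887 to 8757 CPM in C57 ear. The part of these shifts in the Lce1 and Lce3 results was not tested. In whole skin, fewer cells of a layer and less RNA per cell cannot be told apart.

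In grafts, Lce3 genes rose in E7 skin over C57 skin on both days, and few Lce1 genes did. At 14 dpg 5 of 5 Lce3 genes and 1 of 5 Lce1 genes rose, where 30.2% of the 16189 genes tested passed and 15.8% rose. Lce3c had 289.1, 215 and 154 CPM in E7 grafts, against 37.9, 38.1 and 48.4 CPM in C57 grafts (log2 fold change 2.41 ± 0.26, adjusted p = 2.9e-05). The other Lce3 genes stood at 2.44 to 2.94, and E7 grafts lay above C57 grafts in every library for all 5, against 47.2% of all genes tested. The weakest separation was that of Lce3a, with 43.9, 33.8 and 10.2 CPM in E7 grafts, against 4.80, 2.19 and 8.71 CPM in C57 grafts (2.45 ± 0.61, adjusted p = 0.00924). Its adjusted p was 0.0563 in a fit of these 2 groups alone. Lce1f was the Lce1 gene that rose, with 439, 483 and 392.5 CPM in E7 grafts, against 229, 224 and 235 CPM in C57 grafts (0.95 ± 0.21, adjusted p = 0.00379). Lce1g stood at 0.57 ± 0.21 (adjusted p = 0.0583), and Lce1a1, Lce1b and Lce1c at 0.11 to 0.34 (adjusted p = 0.209 to 0.658). Lce1g passed under 4 alternatives, among them DESeq2 (adjusted p = 0.0335). In the same grafts Krt1, a keratin of the suprabasal layers, rose (1.45 ± 0.27, adjusted p = 0.00117). The suprabasal markers summed to 40979 to 80418 CPM in E7 grafts, against 27445 to 31182 CPM in C57 grafts, and the fibroblast markers to 16004 to 25388 CPM in E7 grafts, against 30328 to 44972 CPM in C57 grafts. The part of these shifts in the Lce1 and Lce3 results was not tested.

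At 28 dpg 5 of 5 Lce3 genes and 2 of 5 Lce1 genes rose in E7 grafts over C57 grafts, where 35.4% of genes passed and 20.7% rose. No C57 library of 28 dpg reached the filter's minimum count of 10 for Lce3a, Lce3b or Lce3f. For Lce3d only replicate 1 did (17 counts). These genes were tested through groups where they were higher, so the number of Lce3 genes that rose is a description. Lce3c had 95.8, 60.01 and 76.7 CPM in E7 grafts, against 3.76, 1.957 and 1.81 CPM in C57 grafts (log2 fold change 4.88 ± 0.34, adjusted p = 3.43e-07). Lce3d had 56.7, 30.003 and 44.0 CPM in E7 grafts, against 1.52, 0 and 0.139 CPM in C57 grafts (5.97 ± 0.66, adjusted p = 1.66e-05). Of its 18 counts in C57 grafts, 17 came from replicate 1, and without that library 1 count was left, a ratio of 632 in CPM (95% counting interval 113 to 24985). Lce3f stood at 5.65 ± 0.61 (adjusted p = 1.25e-05) and Lce3b at 6.07 ± 1.10 (adjusted p = 0.000954). Of the 5 Lce3b counts in C57 grafts 4 came from replicate 1, without which the ratio was 202 in CPM (35.9 to 7986). Lce3a had 260 counts in E7 grafts and 3 in C57 grafts, a ratio of 95.4 in CPM (95% counting interval 32.3 to 466), or 161 (28.6 to 6374) on the 1 count left without C57 replicate 1. Lce1f had 279, 270 and 234 CPM in E7 grafts, against 114, 100.4 and 99.7 CPM in C57 grafts (1.33 ± 0.21, adjusted p = 0.000254). Lce1g rose as well (1.11 ± 0.22, adjusted p = 0.00156), while Lce1a1, Lce1b and Lce1c stood at 0.04 to 0.18 (adjusted p = 0.55 to 0.878). Krt1 rose in these grafts too (2.41 ± 0.28, adjusted p = 1.16e-05). The suprabasal markers summed to 31001 to 34118 CPM in E7 grafts, against 17178 to 19978 CPM in C57 grafts, and the fibroblast markers to 12583 to 18556 CPM in E7 grafts, against 19568 to 36788 CPM in C57 grafts, and their part was not tested. Over ear and both graft days, Lce1f was thus the one of the 5 Lce1 members that rose with E7 in each comparison. This was not particular to Lce1f among Lce1 genes. Lce1e, which is not a member, rose in ear (1.195, adjusted p = 7.34e-08) and in grafts at 14 dpg (0.606, adjusted p = 0.0419) and 28 dpg (0.868, adjusted p = 0.0064).

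CD1dKOxE7 grafts at 14 dpg had lower Lce1 transcript than E7 grafts, while no Lce3 gene passed the test. All 5 Lce1 genes fell, with log2 fold changes of -1.60 to -1.80, where 29.8% of genes passed, 15.1% rising and 14.8% falling. Lce1a1 had 112, 215 and 166 CPM in CD1dKOxE7 grafts, against 457, 617 and 415 CPM in E7 grafts (-1.60 ± 0.20, adjusted p = 3.85e-05). Lce1f had 79.3, 172 and 127 CPM in CD1dKOxE7 grafts, against 439, 483 and 392.5 CPM in E7 grafts (-1.80 ± 0.21, adjusted p = 2.19e-05). No library of one donor overlapped the other for any Lce1 gene (42.5% of all genes tested), and CD1dKOxE7 replicate 1 was the lowest for all 5. These grafts were also below C57 grafts of the same day for each Lce1 gene (-0.86 to -1.67, adjusted p = 4.15e-06 to 0.00443), where 39.2% of genes passed and 20.1% fell.

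The Lce3 genes pointed both ways at 14 dpg. Lce3c had 109, 166 and 144 CPM in CD1dKOxE7 grafts, against 289.1, 215 and 154 CPM in E7 grafts (log2 fold change -0.66 ± 0.24, adjusted p = 0.0501), and passed under 5 alternatives, among them DESeq2 (adjusted p = 0.0349). Lce3b had 55.3, 76.1 and 80.4 CPM in CD1dKOxE7 grafts, against 49.5, 39.2 and 11.0 CPM in E7 grafts (1.09 ± 0.52, adjusted p = 0.137). Lce3a stood at 0.84 ± 0.52, Lce3d at -0.48 ± 0.38 and Lce3f at -0.09 ± 0.33 (adjusted p = 0.258, 0.379 and 0.863). Against C57 grafts of that day, in a comparison that shares the CD1dKOxE7 libraries, all 5 Lce3 genes rose in CD1dKOxE7 grafts (1.75 to 3.53, adjusted p = 6.07e-05 to 0.000787), where 19.1% of genes rose.

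Other cell and layer markers moved in the same grafts. Krt10, a keratin of the suprabasal layers in which cornification takes place, fell to 3799 CPM in CD1dKOxE7 grafts at 14 dpg, against 26333 CPM in E7 grafts (log2 fold change -2.80 ± 0.31, adjusted p = 1.15e-05), and its partner Krt1 fell by 1.60 ± 0.27 on the log2 scale (adjusted p = 0.000342). The basal keratin Krt14 rose (0.57 ± 0.19, adjusted p = 0.0341), and Krt5 stood at 0.01 ± 0.14 (adjusted p = 0.981). The 4 suprabasal markers summed to 11671 to 17822 CPM in CD1dKOxE7 grafts, against 40979 to 80418 CPM in E7 grafts. The 4 neutrophil markers S100a8, S100a9, Ly6g and Retnlg summed to 1134 to 2300 CPM in CD1dKOxE7 grafts, against 29.97 to 252 CPM in E7 grafts, where Ly6g had 0 counts, and the 4 leukocyte markers to 1708 to 2209 CPM, against 441 to 701 CPM. The E7 transgene had 20.4, 17.6 and 23.5 CPM in CD1dKOxE7 grafts, against 33.8, 40.6 and 38.6 CPM in E7 grafts. The part of these shifts in the Lce1 result was not tested.

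At 28 dpg no member passed between CD1dKOxE7 and E7 grafts in the edgeR fit of the 18 graft libraries, where 0.210% of genes did and 0.0741% rose. The 5 Lce3 genes had unadjusted p-values below 0.05, and DESeq2 called 2 of them, Lce3c and Lce3f (adjusted p = 0.00677 each). The edgeR fit of all 24 libraries called Lce3c (1.03, adjusted p = 0.0442). Lce3c had 132, 161 and 184 CPM in CD1dKOxE7 grafts, against 95.8, 60.01 and 76.7 CPM in E7 grafts (log2 fold change 1.02 ± 0.24, adjusted p = 0.0945). Lce3f had 44.3, 67.0 and 99.9 CPM in CD1dKOxE7 grafts, against 35.2, 18.9 and 23.2 CPM in E7 grafts (1.43 ± 0.35, adjusted p = 0.109). Lce3a, Lce3b and Lce3d stood at 1.29 to 1.48 (adjusted p = 0.186 to 0.353). Replicate 3, the library that stood apart, was the highest CD1dKOxE7 library for each Lce3 gene, and without it the number of members called was still 0, with 304 genes called in all, against 34 with it. The Lce3 genes then stood at 0.73 to 1.09 on the log2 scale (adjusted p = 0.101 to 0.556) and the Lce1 genes at 0.08 to 0.35 (adjusted p = 0.442 to 0.9). With all 3 libraries the Lce1 genes stood at -0.06 to 0.22 (adjusted p = 0.698 to 0.998) and overlapped between donors. Of the 5 Lce3 genes, 3 did not overlap between donors, as was the case for 16.2% of all genes tested. Over C57 grafts of 28 dpg, CD1dKOxE7 grafts had more Lce1f (1.55 ± 0.21, adjusted p = 3.57e-05), more Lce1g (1.31 ± 0.22, adjusted p = 0.000239) and more of all 5 Lce3 genes, where 49.4% of genes passed and 26.8% rose. Lce3a, Lce3b, Lce3d and Lce3f were tested through groups other than C57 grafts of 28 dpg, so the number of Lce3 genes is a description. Lce3c and Lce3f stood at 5.90 and 7.07, and Lce3b and Lce3d at 7.36 and 7.26. Without CD1dKOxE7 replicate 3 the same 7 members passed, with Lce1f at 1.68, Lce1g at 1.43 and Lce3b, Lce3c, Lce3d and Lce3f at 5.79 to 6.89. Without C57 replicate 1, which leaves 1 count of each in C57 grafts, the ratio in CPM was 476 for Lce3b (95% counting interval 85.3 to 18841) and 1513 for Lce3d (271 to 59777). Lce3a had 738 counts in CD1dKOxE7 grafts and 3 in C57 grafts, a ratio of 258 in CPM (95% counting interval 87.8 to 1252), or 434 (77.7 to 17169) without C57 replicate 1.

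**Figure D2:**
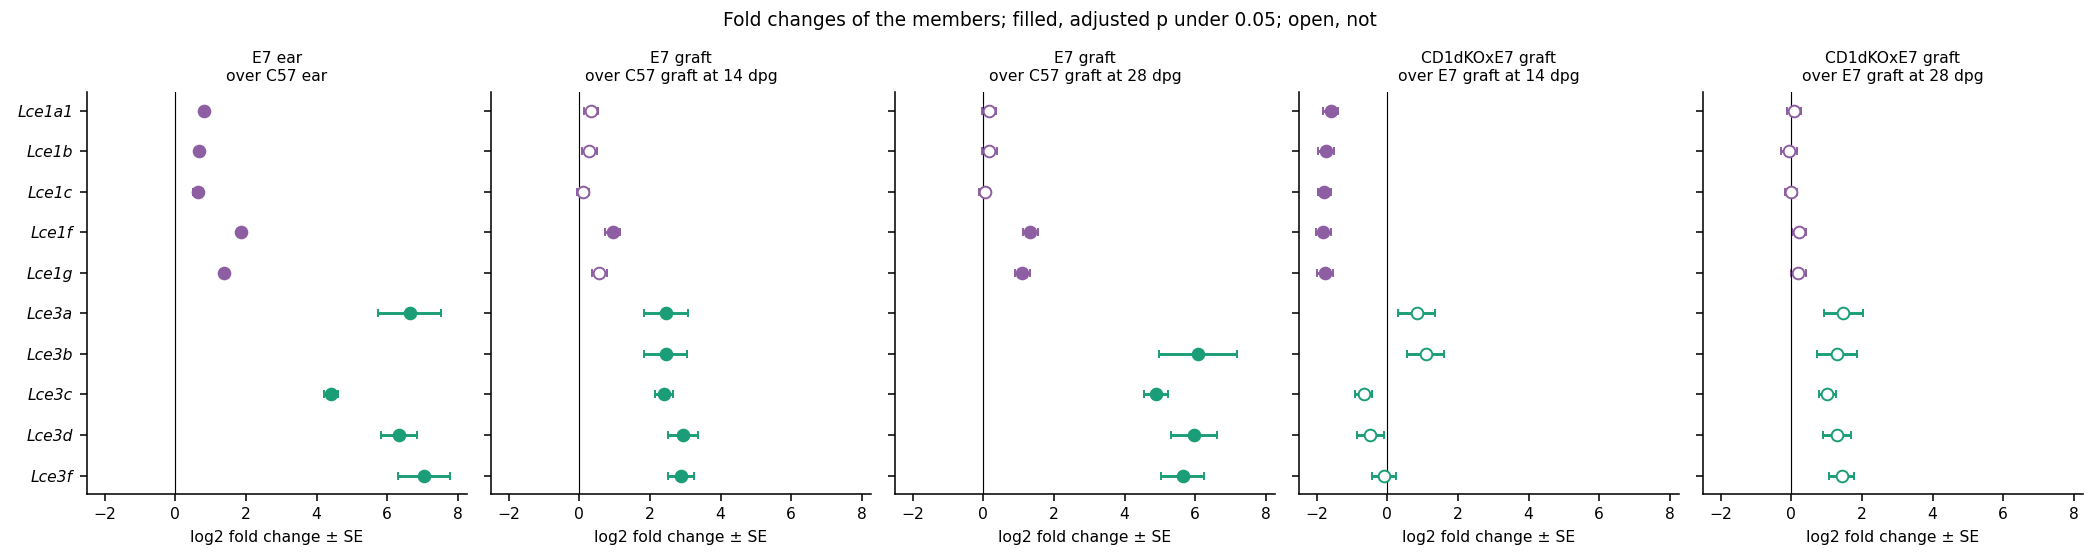
Log2 fold change ± SE of each member in the comparisons of donors, from the fit of all genes, with Lce1 in purple and Lce3 in green. Filled points passed at adjusted p below 0.05, and Lce3b in ear and Lce3a at 28 dpg over C57 are left out because the C57 libraries held 3 counts. Lce3 genes lie at 2.41 or more in every comparison of E7 with C57, and Lce1 genes lie at -1.60 or less in CD1dKOxE7 over E7 at 14 dpg.

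The difference between days was itself tested for the CD1dKOxE7 comparison. For all 5 Lce1 genes the log2 ratio of CD1dKOxE7 to E7 was higher at 28 than at 14 dpg, by 1.66 to 2.02 (adjusted p = 0.000534 to 0.00481), where 12.8% of genes passed and 6.54% in that direction. Without replicate 3 of the CD1dKOxE7 grafts at 28 dpg the Lce1 differences were 1.796 to 2.15 (adjusted p = 0.000105 to 0.0013). Lce3c differed by 1.68 ± 0.34 (adjusted p = 0.00733), or 1.57 without that library (adjusted p = 0.00719), and Lce3d by 1.77 ± 0.55 (adjusted p = 0.0482), where Lce3d did not pass without replicate 3 of the CD1dKOxE7 grafts at 28 dpg (adjusted p = 0.0783), nor with DESeq2 (adjusted p = 0.071) or without most other single libraries (adjusted p of up to 0.126, without E7 replicate 1 of 14 dpg). Lce3f stood at 1.52 ± 0.48 (adjusted p = 0.0528) and passed under 5 alternatives, among them DESeq2 (adjusted p = 0.0171). For the ratio of E7 to C57, Lce3c was the member past the threshold, with a difference of 2.47 ± 0.42 (adjusted p = 0.0346), where 0.167% of genes passed, 0.148% in that direction and 0.0185% in the other. This call was lost without most of the single libraries, at an adjusted p of up to 0.114 (without C57 replicate 3 of 28 dpg), while DESeq2 also called Lce3d and Lce3f. In edgeR Lce3b, Lce3d and Lce3f stood higher, at 3.63 ± 1.497, 3.03 ± 0.87 and 2.77 ± 0.82. Their unadjusted p-values were 0.0299, 0.0036 and 0.0045 (adjusted p = 0.48, 0.215 and 0.237). Lce3a, with 3 counts in C57 grafts at 28 dpg, had an unadjusted p of 0.0298 (adjusted p = 0.48). In those C57 grafts Lce3b, Lce3d and Lce3f had 5, 18 and 13 counts, with 17 of the 18 in replicate 1. All but Lce3c were tested through groups where they were higher, so their values here, with DESeq2 too, are descriptions. The Lce3d value ran from 2.56 to 6.08 under the alternatives.

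Between the days after grafting, C57 grafts lost nearly all Lce3 transcript. All 5 Lce3 genes and 2 of 5 Lce1 genes fell at 28 dpg relative to 14 dpg, where 22.6% of genes passed, 14.2% falling and 8.40% rising. Lce3a, Lce3b, Lce3d and Lce3f were tested through groups other than C57 grafts of 28 dpg, so the number of Lce3 genes that fell is a description. Lce3c had 3.76, 1.957 and 1.81 CPM at 28 dpg, against 37.9, 38.1 and 48.4 CPM at 14 dpg (log2 fold change -3.95 ± 0.34, adjusted p = 1.2e-05). Lce3d stood at -4.73 ± 0.70 (adjusted p = 0.000486), Lce3f at -4.46 and Lce3b at -4.85. Without C57 replicate 1 of 28 dpg, which leaves 1 count of each at 28 dpg, the ratio in CPM was 0.00369 for Lce3d (95% counting interval 9.32e-05 to 0.0207) and 0.0113 for Lce3b (0.000284 to 0.064). Lce3a had 3 counts at 28 dpg and 126 at 14 dpg, a ratio of 0.0216 in CPM (95% counting interval 0.0044 to 0.0646), or 0.0128 (0.000322 to 0.0728) without replicate 1, which held 2 of the 3 counts. Lce1f had 114, 100.4 and 99.7 CPM at 28 dpg, against 229, 224 and 235 CPM at 14 dpg (-1.12 ± 0.21, adjusted p = 0.00172), and Lce1g fell alike (-1.14 ± 0.22, adjusted p = 0.00216). Lce1a1, Lce1b and Lce1c stood at -0.02 to -0.09 (adjusted p = 0.745 to 0.968). Krt1 fell between the same grafts (-1.87 ± 0.27, adjusted p = 0.000284). The suprabasal markers summed to 17178 to 19978 CPM at 28 dpg, against 27445 to 31182 CPM at 14 dpg, and the 6 hair follicle markers to 923 to 1891 CPM at 28 dpg, against 7150 to 13279 CPM at 14 dpg. The part of these shifts in the Lce3 result was not tested.

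In E7 grafts Lce3c, Lce3d and Lce3f fell at 28 dpg by 1.48 to 1.70 on the log2 scale (adjusted p = 0.00207 to 0.0119), where 17.2% of genes passed, 9.48% falling and 7.68% rising. Lce3a and Lce3b stood at -1.37 and -1.23 (adjusted p = 0.11 and 0.144), and Lce1f fell (-0.73 ± 0.20, adjusted p = 0.0255). Lce1f did not pass without replicate 1 or 2 of 14 dpg or without any one library of 28 dpg (adjusted p = 0.0565 to 0.089), nor Lce3d without replicate 1 of 14 dpg or replicate 2 of 28 dpg (0.0601 and 0.056). In a fit of these 2 groups alone Lce3d and Lce3f did not pass (0.0583 and 0.0525), while Lce1g, at -0.60, did (0.0454), as it did with DESeq2 (0.0336). Lce3a and Lce3b passed without replicate 3 of 14 dpg (0.0307 and 0.0376). Krt1 fell in E7 grafts as well (-0.91 ± 0.26, adjusted p = 0.0281), and its part was not tested. In CD1dKOxE7 grafts the pattern was another: all 5 Lce1 genes rose at 28 dpg over 14 dpg, by 1.29 to 1.62 (adjusted p = 5.11e-05 to 0.000799), where 22.6% of genes passed and 10.8% rose. Krt10 rose between the same grafts (1.87 ± 0.30, adjusted p = 0.000603), and its part in the Lce1 result was not tested. None of their Lce3 genes passed with edgeR (-1.02 to 0.20, adjusted p = 0.179 to 0.919), and none did at an unadjusted p under 0.05 or with DESeq2. Without replicate 3 of 28 dpg the Lce1 values were 1.42 to 1.72 (adjusted p = 9.51e-06 to 0.000374), and the Lce3 values were -1.58 to 0.09 with none past the threshold (adjusted p = 0.0534, for Lce3b, to 0.842).

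Relative to C57 ear, C57 grafts at 14 dpg had more of all 5 Lce3 genes and of Lce1b, Lce1f and Lce1g, where 52.6% of 16612 genes passed, 30.6% rising and 22.0% falling. Lce3a, Lce3b, Lce3d and Lce3f were tested through groups other than C57 ear, so the number of Lce3 genes is a description. Lce1b (0.51 ± 0.20, adjusted p = 0.0396) did not pass with any one of the 6 libraries left out (adjusted p = 0.0515 to 0.158), with other scalings or without the low-count filter (0.0568 to 0.123). Lce3a (5.28 ± 1.19, adjusted p = 0.00119) stood at 4.63 without graft replicate 3, and without C57 ear replicate 2 its ratio was 73.5 in CPM on 2 counts (95% counting interval 19.9 to 614). Lce3c stood at 41.5 ± 6.02 CPM in these grafts and 4.58 ± 0.49 CPM in ear (SD, n = 3 each, log2 fold change 3.17 ± 0.29, adjusted p = 8.52e-08). Lce3b had 143 counts in the grafts and 3 in ear, a ratio of 83.1 in CPM (95% counting interval 27.9 to 408). The hair follicle markers summed to 7150 to 13279 CPM in these grafts, against 75.6 to 83.1 CPM in ear, the fibroblast markers to 30328 to 44972 CPM, against 7887 to 8757 CPM, and the suprabasal markers to 27445 to 31182 CPM, against 12664 to 15729 CPM, and their part was not tested. At 28 dpg no member passed against C57 ear in the edgeR fit of all 24 libraries, where 39.2% of genes did. Lce1b had an unadjusted p of 0.0388 there, and DESeq2 called 1 member, Lce3c (-0.84, adjusted p = 0.0248). The edgeR fit of these 2 groups alone called 4 members, Lce1a1 (0.24, adjusted p = 0.0101), Lce1b (0.45, adjusted p = 0.000252), Lce1g (-0.29, adjusted p = 0.0356) and Lce3c (-0.80, adjusted p = 0.0395). Relative to E7 ear, E7 grafts at 14 dpg had more Lce3b, Lce3c, Lce3d and Lce3f (1.17 to 1.81, adjusted p = 0.000515 to 0.0183), where 43.2% of genes passed and 21.9% rose. Lce3b and Lce3d did not pass without E7 ear replicate 2 or without graft replicate 1, nor Lce3b without graft replicate 2 (adjusted p = 0.06 to 0.0955), and neither passed in a fit of these 2 groups alone (0.12 and 0.0892). The fibroblast markers summed to 16004 to 25388 CPM in these grafts, against 2207 to 4335 CPM in E7 ear, and the hair follicle markers to 2558 to 9598 CPM, against 65.2 to 98.2 CPM, and their part was not tested. At 28 dpg E7 grafts had less Lce1c, Lce1f and Lce1g than E7 ear (-0.46 to -0.60, adjusted p = 0.0155 to 0.0415), where 48.1% of genes passed and 24.2% fell. All 3 calls were lost without graft replicate 3, and Lce1c and Lce1f also without graft replicate 1 or without E7 ear replicate 1 or 2 (adjusted p = 0.0502 to 0.136), and Lce1f without graft replicate 2 (0.0699), with upper quartile scaling (0.0879) or without the low-count filter (0.0662). The ratio of E7 to C57 was smaller in grafts at 14 dpg than in ear for Lce1f (-0.92 ± 0.26, adjusted p = 0.0223), Lce3c (-2.00 ± 0.37, adjusted p = 0.00143), Lce3d (-3.41 ± 0.77, adjusted p = 0.00741) and Lce3f (-4.15 ± 0.99, adjusted p = 0.0101), where 12.6% of genes passed, 8.61% in that direction and 4.02% in the other. Lce3d and Lce3f had 30 and 7 counts in C57 ear and were tested through other groups, so their values in this test are descriptions. The Lce1f call was lost without C57 ear replicate 3, E7 ear replicate 1 or 2, or replicate 1 or 3 of either graft (adjusted p = 0.0551 to 0.0665). For grafts at 28 dpg against ear no member passed this test in the edgeR fit of all 24 libraries or with DESeq2, where 7.43% of genes did, and 3 members had an unadjusted p under 0.05: Lce1a1, Lce1c and Lce1f. The edgeR fit of the groups compared alone called these 3 and Lce1b, at -0.47 to -0.62 (adjusted p = 0.00284 to 0.0299).

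A ratio within a library does not depend on how libraries were scaled, and so the summed Lce3 counts were set against the summed Lce1 counts. In ear there were 72.0, 114 and 173 Lce3 counts per 1000 Lce1 counts in E7 skin, against 5.48, 6.52 and 7.01 in C57 skin. At 14 dpg there were 741, 877 and 981 in CD1dKOxE7 grafts, 212, 232 and 454 in E7 grafts, and 57.5, 60.9 and 75.6 in C57 grafts. At 28 dpg there were 199, 223 and 463 in CD1dKOxE7 grafts, 86.1, 134 and 166 in E7 grafts, and 2.35, 2.64 and 5.95 in C57 grafts. The donors did not overlap within a tissue and day, and the highest library at 28 dpg was replicate 3 of CD1dKOxE7. The ratio shows unequal change of the groups and not which of them changed. With Lce1a1 and Lce3c, the members with the most counts, left out of the sums, the order of the donors was the same, with 728 to 986 in CD1dKOxE7 grafts at 14 dpg, 150 to 382 in E7 grafts and 41.0 to 57.7 in C57 grafts.

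**Figure D3:**
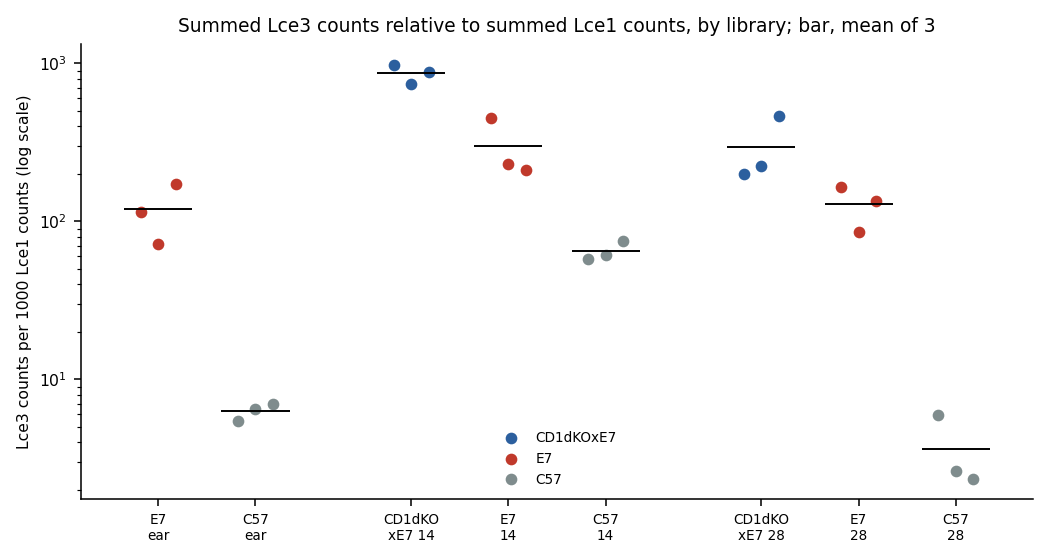
Summed Lce3 counts per 1000 summed Lce1 counts in each library, on a log scale. Points are libraries and bars are means of 3. CD1dKOxE7 grafts at 14 dpg reach 741 to 981, and C57 ear and C57 grafts at 28 dpg stay below 10.

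Whole skin also holds dermis, fat, muscle and cartilage, so the sums were set against the counts of Krt1 and Krt10 too. Per 1000 of these counts, Lce1 had 25.5, 32.9 and 64.2 counts in CD1dKOxE7 grafts at 14 dpg, against 27.2, 30.9 and 38.3 in E7 grafts, and the donors overlapped. Lce3 had 25.0, 28.8 and 47.6 in CD1dKOxE7 grafts, against 6.31, 8.10 and 14.0 in E7 grafts, with no overlap. The keratins themselves differed, with a mean summed level of 13712 CPM in these CD1dKOxE7 grafts, against 56163 CPM in E7 grafts. Summed Lce3 had a mean of 446 CPM, against 511 CPM, so the higher ratio is not a higher Lce3 level. In ear, Lce1 had 46.1, 54.6 and 59.1 counts in E7 skin, against 65.0, 69.2 and 80.1 in C57 skin, below it in every library, while Lce3 had 4.25, 6.21 and 7.97 in E7 skin, against 0.379, 0.424 and 0.562 in C57 skin. Relative to these keratins Lce1 was thus lower in E7 ear than in C57 ear, where its CPM was higher. Krt1 itself rose in E7 ear (3.66 ± 0.16, adjusted p = 2.18e-08) and so did Krt10 (0.93 ± 0.12, adjusted p = 5.26e-05).

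**Figure D4:**
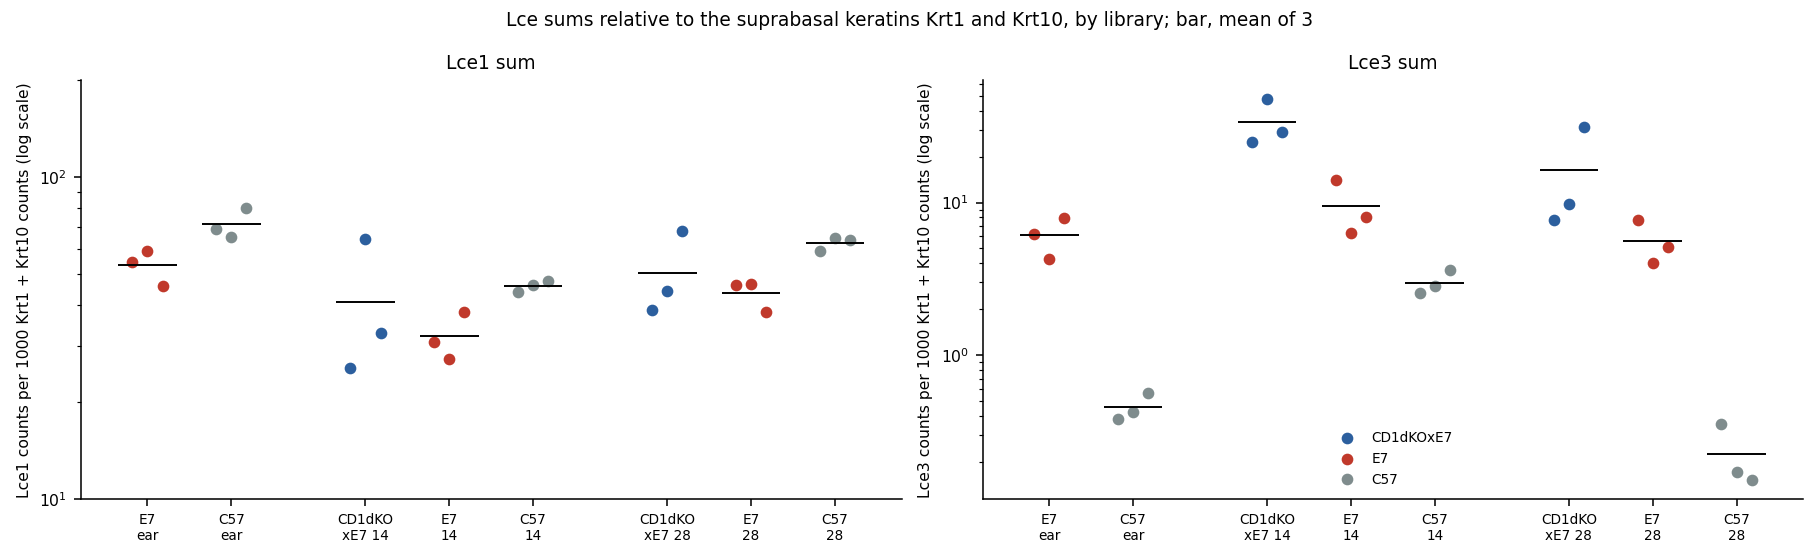
Lce1 counts (left) and Lce3 counts (right) per 1000 counts of Krt1 and Krt10 in each library, on log scales of different range. Points are libraries and bars are means of 3. The Lce1 values span 25.5 to 80.1 over all libraries, and the Lce3 values 0.151 to 47.6.

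Other genes of the cornification programme were counted in lists. Of all genes tested, 32.6% rose and 32.7% fell in E7 ear, and 15.1% rose and 14.8% fell in CD1dKOxE7 over E7 grafts at 14 dpg. Of 17 further genes of the Lce cluster and its neighbours, 12 were matched and tested. In E7 ear 10 rose and 1 fell, with a median log2 fold change of 1.04, and in CD1dKOxE7 over E7 grafts at 14 dpg 0 rose and 11 fell (median -1.59). The gene that did not fall there was Lce3e (-0.32 ± 0.33, adjusted p = 0.506), the one further Lce3 gene, likewise named after its values were seen. Lce3e had 46.8 CPM in E7 ear and 0.467 CPM in C57 ear (6.61 ± 0.53, adjusted p = 0.000117), where it passed the filter on low counts through the E7 libraries alone, so this value too is a description. The gene that fell in E7 ear was Lce1m, also named after its values were seen, at 121 CPM in E7 ear and 390 CPM in C57 ear (-1.69 ± 0.38, adjusted p = 0.0148). Lce1m was also lower in E7 than in C57 grafts at 14 dpg (-0.97 ± 0.25, adjusted p = 0.0108) and at 28 dpg (-1.59 ± 0.25, adjusted p = 0.000275).

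Of 26 late cornification genes, 24 rose and 1 fell in E7 ear (median 1.33), and 0 rose and 21 fell in CD1dKOxE7 over E7 grafts at 14 dpg (median -1.25), beside 32.6% of all genes that rose in E7 ear and 14.8% that fell in those grafts. Among them, Flg, which encodes filaggrin, fell to 879 CPM in CD1dKOxE7 grafts, against 4585 CPM in E7 grafts (-2.39 ± 0.26, adjusted p = 1.31e-05), and Ivl, which encodes the envelope protein involucrin, stood at 228 and 583 CPM (-1.37 ± 0.13, adjusted p = 4.94e-06). The gene that fell in E7 ear was Flg2, a relative of Flg, named after its values were seen (-0.47 ± 0.13, adjusted p = 0.0106). Of 22 wound-linked genes 21 passed the filter on low counts, 5 of them in ear through the E7 libraries alone (Sprr2b, Sprr2e, Sprr2f, Sprr2g and Defb3), so the count and median in ear are descriptions. All 21 rose in E7 ear (median 5.74), where 32.6% of all genes did. In C57 grafts at 28 dpg relative to 14 dpg 16 fell and 0 rose (median -2.71), where 14.2% of all genes fell. Sprr2g had a mean of 0.318 CPM in C57 grafts at 28 dpg and was tested through groups where it was higher. The count and median of these C57 grafts are thus descriptions too. In CD1dKOxE7 over E7 grafts at 14 dpg 12 rose and 0 fell (median 1.22), where 15.1% rose. Sprr2h, which encodes a small proline-rich envelope protein, had 177 ± 3.11 CPM in E7 ear and 1.58 ± 0.036 CPM in C57 ear (SD, n = 3 each, log2 fold change 6.79 ± 0.085, adjusted p = 1.73e-12), and stood at -0.32 ± 0.19 in CD1dKOxE7 over E7 grafts at 14 dpg (adjusted p = 0.222). Sprr2d rose in that comparison (1.97 ± 0.50, adjusted p = 0.00824). The list holds S100a8 and S100a9, which neutrophils also express. Both genes are also part of the neutrophil sum given above, so that sum cannot tell which cells they came from. Of 20 regulators of epidermal differentiation, 17 rose and 0 fell in E7 ear (median 0.91; 32.6% of all genes rose), with Fosl1 tested through the E7 libraries alone, and 0 rose and 9 fell in CD1dKOxE7 over E7 grafts at 14 dpg (median -0.43; 14.8% of all genes fell). In those grafts Ovol1, a transcription factor gene of the suprabasal layers, had 148 CPM in CD1dKOxE7 grafts and 276 CPM in E7 grafts (-0.91 ± 0.15, adjusted p = 0.000286) and Junb, a subunit of AP-1, stood at 0.15 ± 0.16 (adjusted p = 0.529).

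Across the 24 libraries, as a description over libraries that share groups and depth, the genes most like the mean log2 CPM of the Lce1 members were Lce1i (Pearson r = 0.959), Lce6a (0.942), Lce1e (0.938), Lce1h (0.934), Lce1d (0.927) and Csnk2a2 (0.909). Those most like the Lce3 mean were Lce3e (0.992), Stfa2 (0.975), Sprr2g (0.974), Teddm3 (0.973), Sprr1b (0.971) and Krt16 (0.970). Among the members, each Lce3 gene had r of 0.988 to 0.993 with the Lce3 mean, of which it is itself a part, and the genes share sequence. Lce1f (0.673) and Lce1g (0.499) lay closer to the Lce3 mean than Lce1a1 (-0.03), Lce1b (-0.04) and Lce1c (-0.20) did.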

How the data were processed

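The authors deposited 1 table per library (24 in all) with whole-number counts of reads by gene. The submitters' processing notes name bcl2fastq 1.8.4 (ears), FastQC (grafts), Trimmomatic (both) and the mm10 build. The aligner, the counter and the use of strand are not given in the sources used here. Per the labels' protocols, snap-frozen whole skin was extracted with Trizol and RNeasy columns and made into TruSeq RNA v2 libraries. Of 27180 rows, 25275 matched the gene reference and 1905 did not.

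Counts were tested with edgeR 4.0.16 (R 4.3.3): TMM scaling, genes kept by filterByExpr over the groups (minimum count 10, total 15), and robust quasi-likelihood F tests. Benjamini-Hochberg adjustment ran over all genes, and a gene passed at an adjusted p below 0.05. Ears (6 libraries, 15720 genes), grafts (18 libraries, 16189 genes) and all 24 libraries (16612 genes, for grafts against ears) were fitted apart. Standard errors were the log2 fold change over the square root of F. CPM used TMM sizes of all 24 libraries, and CPM per kb the longest GENCODE vM21 transcript. Where a group held 1 to 3 counts, a CPM ratio with an exact 95% interval replaces the fitted fold; it covers counting error only. The fit was also run on simulated counts of the ear libraries, whose outcome is not given here, and no result above rests on it.

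The members and lists were chosen with earlier results of these data known. For each list up to 4 genes with the smallest adjusted p in E7 over C57 ear could be named, and for each group the 6 genes most like its mean log2 CPM by Pearson r. Alternatives were other scalings, other filters, DESeq2 1.42.0, other sets of libraries, a replicate block and each library left out. Replicate numbers were not used to pair libraries in the tests given above, and no label gives the numbers a shared source. In 1 of 15 pairs of graft groups, CD1dKOxE7 and C57 at 14 dpg, every correlation of same-numbered deviations was over 0.1 (0.107, 0.117 and 0.186).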

Additional observations from a re-analysis of the deposited data

Results flagged for a closer look

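The following values are those where an effect differed between days or tissues by the test of the difference itself, as differences of log2 fold changes with an adjusted p below 0.05 (edgeR). The ratio of CD1dKOxE7 to E7 grafts was higher at 28 than at 14 dpg by 1.68 for Lce1a1, 1.66 for Lce1b, 1.78 for Lce1c, 2.02 for Lce1f, 1.97 for Lce1g, 1.68 for Lce3c and 1.77 for Lce3d. The Lce3d call changed under 15 of 20 alternatives. The ratio of E7 to C57 grafts was higher at 28 than at 14 dpg by 2.47 for Lce3c, a call that changed under 11 of 20 alternatives. The ratio of E7 to C57 skin differed between grafts at 14 dpg and ear by -0.92 for Lce1f, -2.0 for Lce3c, -3.41 for Lce3d and -4.15 for Lce3f. The Lce1f call changed under 8 of 18 alternatives. The Lce3d and Lce3f values rested on 30 and 7 counts in C57 ear, and are descriptions, since both genes were tested through other groups.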

How the results depend on the processing

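Of 2616 recomputed member values, 2497 kept their direction and side of the threshold or passed under neither setting, 72 no longer passed, 47 newly passed and none that passed changed sign. In CD1dKOxE7 over E7 grafts at 28 dpg 0 members passed, against 2 with DESeq2 and 1 with all 24 libraries in one fit. In C57 grafts at 28 dpg over C57 ear 0 passed, against 1 with DESeq2 and 4 in a fit of the groups compared alone. For the E7 effect at 28 minus 14 dpg 1 passed, against 3 with DESeq2 and 0 without the low-count filter, in the groups compared alone or with the replicate block. For the E7 effect in grafts at 14 dpg minus ear 4 passed, against 7 with DESeq2, and at 28 dpg minus ear 0, against 4 in the groups compared alone. With 1 library left out, the members past the threshold ranged from 2 to 6 for E7 grafts at 28 over 14 dpg, 2 to 5 for E7 grafts at 14 dpg over ear, 0 to 4 for E7 grafts at 28 dpg over ear and 0 to 1 for the E7 effect at 28 minus 14 dpg. Of all genes, the calls in CD1dKOxE7 over E7 grafts at 28 dpg numbered 34, and 3 to 304 under the alternatives. Other counts of all genes that moved by over 1.5 times were 4889 in E7 over C57 grafts at 14 dpg (3043 without C57 replicate 3 of 14 dpg), 2778 in E7 grafts at 28 over 14 dpg (at least 1211), 3660 in CD1dKOxE7 grafts at 28 over 14 dpg (1308 to 5142), and, for differences of effects, 27 (12 to 152) and 2080 (1099 to 3956) between the days for E7 and CD1d, and 2098 (at least 1394) and 1234 (743 to 2190) between grafts at 14 or 28 dpg and ear. The causes were not tested. Same-numbered libraries had a median correlation of deviations of 0.025 over 45 pairs (-0.349 to 0.294). In 14 of 15 pairs of graft groups not every correlation was over 0.1, and the numbers were not used to pair libraries in the tests given above. With the replicate block, 10 members passed in CD1dKOxE7 over C57 grafts at 14 dpg, as without it, and the block ended the call of Lce3d in the CD1d effect between the days (adjusted p = 0.0668). Lce3 genes in C57 ear and C57 grafts at 28 dpg had so few counts that depth limits their folds.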
